A study of Mus musculus with 18 samples.

Results

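The miR-181 family is a set of 4 mouse microRNAs (miRNAs), mmu-miR-181a-5p, mmu-miR-181b-5p, mmu-miR-181c-5p and mmu-miR-181d-5p. Its chimeric reads were followed in cultured mouse keratinocytes that lacked or carried the miR-200 family. The 4 members were taken by name from 1797 miRNA names in the data. They were chosen by their high shares of chimeric reads in the DKO pool of set 2, so that contrast is given below as a description only. Together they made up 2750 of 1153545 chimeric reads, 0.238%.

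The data came from CLEAR-CLIP, in which Argonaute 2 is precipitated from UV-irradiated cells and each miRNA is ligated to the RNA it lies on, so that 1 sequencing read names both the miRNA and the target position. Set 1 held 3 libraries of miR-200 double knockout keratinocytes (DKO) and 6 control libraries of K14-Cre Only keratinocytes, which carry Cre under the keratin 14 promoter. Set 2 held 3 DKO libraries, 3 libraries of miR-200 inducible keratinocytes given 3 ug/ml doxycycline for 24 hours, and 3 libraries of the same inducible line left uninduced as controls. The uninduced control is thus another line than the set 1 control, and in set 2 the line and the miR-200 deletion cannot be told apart. The libraries of a group were pooled in 1 file without library names, so each group is 1 pooled sample. No difference between groups has a replicate check, no test was made, and every interval covers counting error only.

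The pools held 48662 chimeric reads in set 1 DKO, 161692 in set 1 control, 210003 in set 2 DKO, 419117 in set 2 induced and 314071 in set 2 uninduced control. The deleted family checked the labels: miR-200 family reads were 0.160% of set 1 DKO against 3.20% of set 1 control, and 0.360% of set 2 DKO and 9.04% of set 2 induced against 6.68% of the uninduced control. All 6 keratinocyte marker genes had target chimeras in every pool. Of 6 fibroblast genes, Col1a1, Col1a2, Col3a1, Dcn and Lum were at 0 in all 5 pools, while Pdgfra had 0 chimeras in set 1 DKO, set 1 control and set 2 DKO, 11 in set 2 induced and 10 in the uninduced control. The immune genes together had 0 to 3 chimeras a pool, with Ptprc and Cd52 at 0 in every pool. The 4 endothelial genes together had 3 in set 1 DKO and 5 in set 1 control, and 5 in set 2 DKO and 9 in set 2 induced against 9 in the uninduced control, with Cdh5 at 0 in every pool. Immune miRNAs together had at most 8 reads in a pool, and both arms of miR-142a, a marker of blood cells, were at 0. By their read names, set 1 and set 2 came from separate flow cells, and set and sequencing run cannot be told apart.

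A miRNA guides Argonaute to a target mainly through its seed, bases 2 to 8 from the 5′ end, and the bases after the seed can add pairing. The miR-181 family is expressed in many tissues and is best known from lymphocytes, where it tunes the sensitivity of the T cell receptor by acting on phosphatases. Its members come from separate genomic clusters, each a pair of neighbouring hairpins transcribed together.

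The mature sequences show what the members share and where they part, with the seed in capitals. They are from RefSeq on GRCm38.p6.

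miR-181a-5p: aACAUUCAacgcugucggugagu
miR-181c-5p: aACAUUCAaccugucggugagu
miR-181b-5p: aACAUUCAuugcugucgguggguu
miR-181d-5p: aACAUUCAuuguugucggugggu

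All 4 members have the seed ACAUUCA. Positions are counted from 1 at the 5′ end of the miRNA named first. miR-181c differs from miR-181a by the absence of G11 alone, and miR-181d differs from miR-181b by C12U and the absence of U23. Between these pairs lie the bases just after the seed: miR-181b differs from miR-181a by A9U, C10U and A21G and by an added final U. By sequence the family therefore falls into miR-181a with miR-181c and miR-181b with miR-181d.

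The genome pairs them otherwise. On mm10 chromosome 1, Mir181a-1 (137966455 to 137966541) is followed after 97 bases by Mir181b-1 (137966639 to 137966718) on the plus strand. On chromosome 2, Mir181a-2 (38852735 to 38852810) and Mir181b-2 (38853830 to 38853918) lie 1019 bases apart, inside the span of Nr6a1, an orphan nuclear receptor gene on the opposite strand. On chromosome 8, Mir181d (84178716 to 84178787) and Mir181c (84178873 to 84178961) lie 85 bases apart on the minus strand. miR-181a and miR-181b thus share clusters with each other, as miR-181c and miR-181d do.

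The share of a member is its reads as a percent of all chimeric reads of a pool, with the exact Clopper-Pearson 95% interval. The whole family had 0.362% (0.310 to 0.419) of set 1 DKO and 0.335% (0.308 to 0.365) of set 1 control. It had 0.436% (0.408 to 0.465) of set 2 DKO, 0.145% (0.133 to 0.157) of set 2 induced and 0.162% (0.149 to 0.177) of the uninduced control. The set 2 DKO pool was thus the highest of the 5, and the induced and uninduced pools of set 2 were low beside both pools of set 1.

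The members did not share this pattern equally. miR-181a made up 0.0843% of set 1 DKO and 0.0649% of set 1 control, and 0.165% of set 2 DKO and 0.0270% of set 2 induced against 0.0232% of the uninduced control. miR-181b made up 0.0863% of set 1 DKO and 0.101% of set 1 control, and 0.124% of set 2 DKO and 0.0224% of set 2 induced against 0.0293% of the uninduced control. Both members of the shared clusters were thus far lower in the inducible line, with or without doxycycline, than in any other pool.

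miR-181c made up 0.0452% of set 1 DKO and 0.0538% of set 1 control, and 0.0762% of set 2 DKO and 0.0489% of set 2 induced against 0.0589% of the uninduced control. miR-181d made up 0.146% of set 1 DKO and 0.116% of set 1 control, and 0.0710% of set 2 DKO and 0.0463% of set 2 induced against 0.0509% of the uninduced control. In set 1, miR-181d had the highest share of the 4 in DKO and control, although its interval overlapped that of miR-181b in both pools and that of miR-181a in DKO. In set 2 DKO the order was miR-181a, then miR-181b, then miR-181c and miR-181d, whose intervals overlapped each other.

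**Figure D1:**
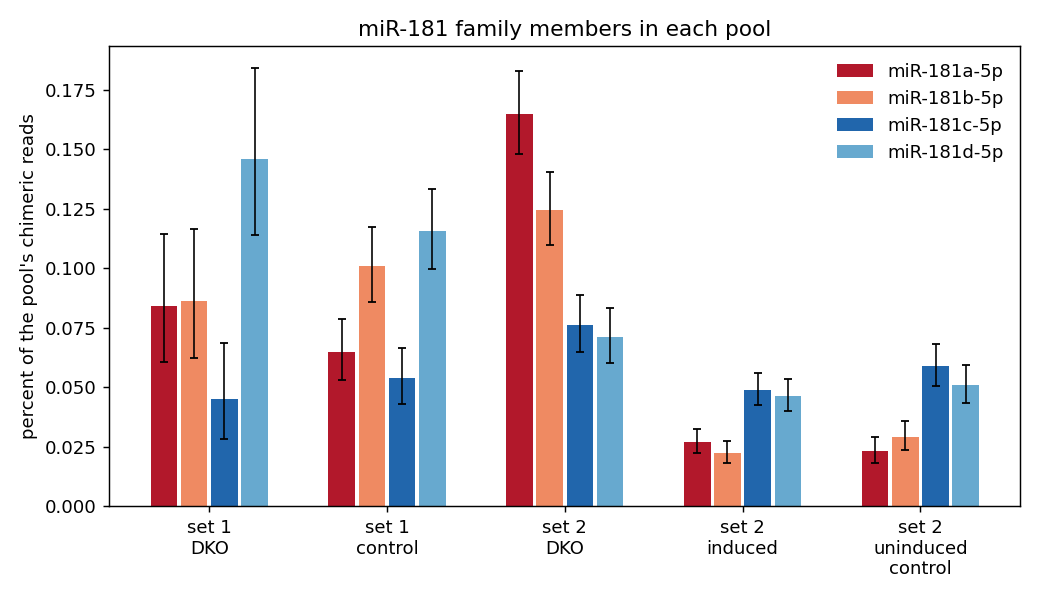
Share of each miR-181 member in each pool, as percent of the pool's chimeric reads (vertical axis), with exact 95% counting intervals as error bars. miR-181a and miR-181b stand highest in set 2 DKO and lowest in the induced and uninduced pools, while miR-181c stays between 0.0452% and 0.0762% in all 5 pools.

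In the contrast that chose the members, miR-181a had 346 reads in set 2 DKO against 73 in the uninduced control, a ratio of shares of 7.09 (conditional exact interval 5.49 to 9.25). miR-181b had 261 reads in set 2 DKO against 92, a ratio of 4.24 (3.33 to 5.44). miR-181c had 160 against 185 reads from pools of unequal depth, a ratio of 1.29 (1.04 to 1.61), and miR-181d had 149 against 160, a ratio of 1.39 (1.11 to 1.75). The interval of miR-181c included 1 when the total left out the miR-200 family, at 1.21 (0.974 to 1.51), or miR-31-5p, miR-21a-5p and miR-709, at 1.23 (0.992 to 1.53). Within the chosen contrast the high values thus belonged to the chromosome 1 and 2 members, at 5.50 for miR-181a and miR-181b together, beside 1.34 for the chromosome 8 members together. Some cell type markers also differed between these pools: the epidermal miR-205-5p made up 5.39% of set 2 DKO against 2.56% of the uninduced control, a ratio of 2.10. The other epidermal marker, miR-203-3p, made up 1.11% against 1.38%, and the interval of its ratio was 0.760 to 0.841. The endothelial miR-126a-3p had 40 reads in set 2 DKO against 128, a ratio of shares of 0.467 (0.319 to 0.671). The fibroblast miRNAs together had 8 against 14, a ratio of 0.855 (0.311 to 2.18), which includes 1. The part of cell makeup in the miR-181 values was not tested.

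Ratios of at least 2 were counted over the miRNAs with at least 50 reads in the compared pools. In set 2 DKO over its control, 2 of the 4 members were at least 2-fold higher, where 11.5% of 260 miRNAs were, and nothing is read from that count because this contrast chose them. By ratio miR-181a was at rank 4 and miR-181b at rank 8, miR-181d at rank 65 and miR-181c at rank 76. The miRNAs above miR-181a were miR-196b-5p, miR-99a-5p and miR-340-5p.

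Set 1 compares DKO cells with a control in libraries the choice did not use. miR-181a had 41 reads in set 1 DKO against 105 in set 1 control, a ratio of shares of 1.30 (0.881 to 1.88). miR-181b had 42 against 163 reads, a ratio of 0.856 (0.595 to 1.21). miR-181c had 22 against 87 and a ratio of 0.840 (0.501 to 1.35), and miR-181d had 71 against 187 and a ratio of 1.26 (0.946 to 1.67). Every interval included 1, and the family as a whole had a ratio of 1.08 (0.905 to 1.28). None of the 4 members was at least 2-fold higher or lower in set 1, where 9.49% of 253 miRNAs were higher and 20.9% lower. Without reads shared within the set, meaning those found again in its other pool with the same barcode, miR-181d had a ratio of 1.37 (1.01 to 1.83), which excludes 1. Fibroblast miRNAs together had 8 reads in set 1 DKO against 96 in set 1 control, miR-205-5p had a ratio of 1.38 and miR-203-3p one of 2.98 (2.72 to 3.27), and their part here was not tested. The difference between the sets was not tested.

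Under induction of miR-200 the intervals of all 4 members included 1. miR-181a had 113 reads in the induced pool against 73, a ratio of 1.16 (0.857 to 1.58), and miR-181b had 94 against 92, a ratio of 0.766 (0.568 to 1.03). miR-181c had 205 against 185 and a ratio of 0.830 (0.677 to 1.02), and miR-181d had 194 against 160 and a ratio of 0.909 (0.733 to 1.13). The family ratio was 0.890 (0.790 to 1.00), with an upper limit just above 1. Without reads shared within the set, the intervals of miR-181c, at 0.811 (0.658 to 0.999), and of the family, at 0.880 (0.779 to 0.995), excluded 1. No member was at least 2-fold higher or lower, where 1.79% of 280 miRNAs were higher and 0.357% lower. The induced and set 2 DKO pools were set against the same uninduced control.

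**Figure D2:**
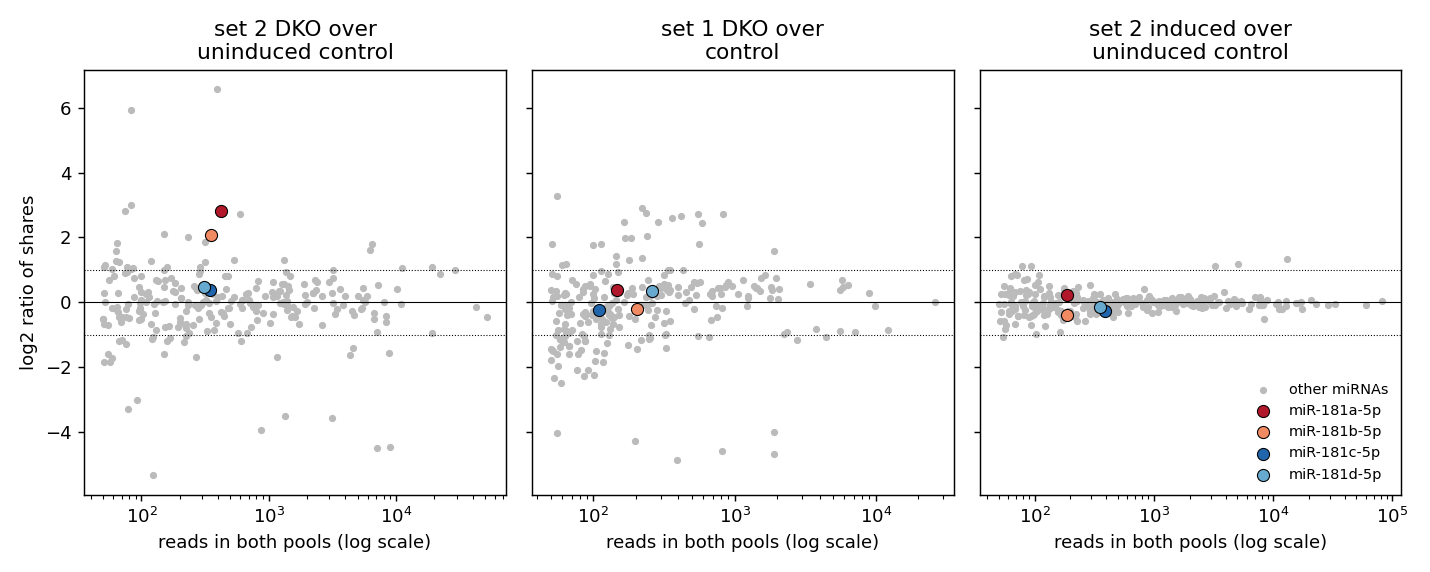
Each point is a miRNA with at least 50 reads in the compared pools, by its reads in both pools (horizontal, log scale) and its log2 ratio of shares (vertical), for the 3 contrasts; dotted lines mark 2-fold. In set 2 DKO over control, miR-181a and miR-181b lie above the upper dotted line and miR-181c and miR-181d below it, and in the other panels all 4 members lie between the lines.

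The same reads can be given as the makeup of the family in each pool, again as a description. miR-181a and miR-181b gave 47.2% of family reads in set 1 DKO and 49.4% in set 1 control. They gave 66.3% in set 2 DKO, 34.2% in set 2 induced and 32.4% in the uninduced control. In set 1 both genomic pairs thus contributed about equally, while in set 2 the DKO pool leaned to miR-181a and miR-181b and the inducible line to miR-181c and miR-181d.

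The passenger strands, cut from the 3′ side of the same hairpins, were rare. All 3p arms of the family together had 3 reads in set 1 DKO, 15 in set 1 control, 9 in set 2 DKO, 10 in set 2 induced and 7 in the uninduced control. miR-181a-1-3p, which only the chromosome 1 hairpin yields, had 4 reads in set 2 DKO and 0 in each of the other 4 pools, where 3 reads would be 0.000955% of the uninduced control. At this depth no ratio of the 3p arms between groups was distinguishable from 1.

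The hairpins themselves also appeared as the target part. Of the 2750 family reads, 66 lay on the hairpin the miRNA comes from, all on the hairpin's strand. Mir181a-1 had 46 of them, with 2 in set 1 DKO and 7 in set 1 control, and with 21 in set 2 DKO and 6 in set 2 induced against 10 in the uninduced control. Its ratio to all reads was 3.14 (1.42 to 7.47) in set 2 DKO over the uninduced control. These are miR-181a reads of the contrast that chose the members, so that ratio is a description only. With each position counted once, Mir181a-1 had 6 in set 2 DKO against 5 in the uninduced control. The interval of its read ratio included 1 in set 1 DKO over control (0.0962 to 4.99) and with induction (0.134 to 1.37). Mir181b-1 had 10 reads, Mir181c had 6, Mir181a-2 had 2, and Mir181b-2 and Mir181d had 1 each. The 2 copies of miR-181a are the same mature RNA and cannot be told apart by name, and among their hairpins nearly all reads were on the chromosome 1 copy.

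The chromosome 1 hairpins are shown because their reads begin where the mature arm ends. Capitals mark all bases spanned by the target parts, on the plus strand.

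Mir181a-1: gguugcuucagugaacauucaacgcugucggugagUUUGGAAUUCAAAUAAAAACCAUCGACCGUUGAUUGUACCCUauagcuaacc
Mir181b-1: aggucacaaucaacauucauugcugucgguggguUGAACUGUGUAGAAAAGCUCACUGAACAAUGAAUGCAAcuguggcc

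The target parts of 44 of the 46 Mir181a-1 reads began 0 to 2 bases after the last base of the 5p arm, at position 137966490, and those of all 10 Mir181b-1 reads began at its last base, 137966673. The capitals run through the loop into the 3p arm. A read that continues from the mature arm into its own hairpin and a ligation of the mature miRNA to that hairpin cannot be told apart in these data. Without all own-hairpin reads, the members' ratios kept their side of 2-fold in each contrast.

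Both miR-138-5p and miR-130b-3p were set beside the family as comparison miRNAs. miR-138-5p had 73 reads in set 2 DKO against 45 in the uninduced control, a ratio of 2.43 (1.65 to 3.60), while its ratio was 0.767 (0.258 to 1.90) in set 1 and 0.949 (0.631 to 1.44) with induction. miR-130b-3p had intervals that included 1 in all 3 contrasts, at 1.27 for set 2 DKO, 1.90 for set 1 DKO and 1.20 for the induced pool.

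The miRNAs most like the whole family over the 5 pools were found by the distance between their log2 shares, each centred on its own mean, among 457 miRNAs. The nearest was miR-140-3p at a distance of 0.406, against a median distance of 2.38. It made up 0.134% of set 1 DKO and 0.0965% of set 1 control, and 0.160% of set 2 DKO and 0.0599% of set 2 induced against 0.0643% of the uninduced control. It was followed by miR-24-1-5p at 0.577, miR-30a-5p at 0.793, miR-20b-5p at 0.851 and miR-33-3p at 0.866. The 5 points behind each distance share depth and sequencing run within a set, and in set 1 DKO, the shallowest pool, miR-24-1-5p had 8 reads, miR-20b-5p had 6 and miR-33-3p had 5.

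Target positions were counted as chimeras, each a distinct combination of position, strand and miRNA, of which the family had 2554. Per pool it had 160 in set 1 DKO, 501 in set 1 control, 849 in set 2 DKO, 568 in set 2 induced and 476 in the uninduced control. Between 80.6% and 88.9% of them lay in protein-coding genes, depending on the pool, and 97.8% to 99.7% of those with a known gene strand lay on that strand. These positions are spans of whole genes on RefSeq, with exons and introns not told apart.

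A larger part of family targets than of other miRNAs' targets lay near gene ends in each pool, without a test. Of same-strand chimeras, 37.5% lay within 2000 bases of the gene's 3′ end in set 1 DKO, where 21.1% of other miRNAs' chimeras did, and 31.0% in set 1 control, where 14.2% did. The family's percent was 24.6% in set 2 DKO, where other miRNAs had 21.0%, and 36.1% in set 2 induced against 23.6%. In the uninduced control it was 33.2%, where other miRNAs had 23.7%. Set 2 DKO was thus the pool in which the family was least concentrated at gene ends. By genomic pair, miR-181c and miR-181d had 23.6% in set 2 DKO and 34.7% in set 2 induced against 36.7% in the uninduced control. miR-181a and miR-181b had 25.2% in set 2 DKO and 39.0% in set 2 induced against 24.7% in the uninduced control.

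The family's chimeras fell on 1311 named genes, of which 1004 had them in 1 pool and 5 had them in all 5 pools. Genes with at least 2 chimeras numbered 21 in set 1 DKO and 63 in set 1 control, and 115 in set 2 DKO and 61 in set 2 induced against 46 in the uninduced control, from pools of unequal numbers of chimeras. In set 2 DKO the 488 chimeras of miR-181a and miR-181b lay on 394 genes, and the most on any gene was 6, on Car12, a carbonic anhydrase. Of these genes 327 had 1 chimera. The part of genes with 1 chimera was 82.6% for the same members in set 1 DKO, 86.1% in set 2 induced and 87.1% for miR-181c and miR-181d in set 2 DKO. For miR-181a and miR-181b, set 2 DKO shared 28 genes with the uninduced control, 7.11% of the set 2 DKO genes and 25.2% of the control's. The induced pool shared 14 with it, 9.72% and 12.6%. For miR-181c and miR-181d, set 2 DKO shared 32 genes with the control, 14.2% and 12.9%. Set 1 DKO shared 13 genes of miR-181a and miR-181b with set 1 control, 28.3% and 7.10%. These overlaps depend on the unequal numbers of chimeras and were not tested.

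Lrrc32, which encodes GARP, an anchor of latent TGF-beta on the cell surface, led the target genes by mean share over the pools. It had 0 chimeras in set 1 DKO against 10 in set 1 control, and 2 in set 2 DKO and 17 in set 2 induced against 7 in the uninduced control. The family's Lrrc32 chimeras were thus fewest in both DKO pools, but these counts are low and a link to the deletion was not tested. All miRNAs together gave Lrrc32 4 chimeras in set 1 DKO against 16 in set 1 control, and 9 in set 2 DKO and 105 in set 2 induced against 30 in the uninduced control, from pools of unequal depth. As a share of the family's chimeras, Lrrc32 had a ratio of 2.04 (0.802 to 5.80) in the induced pool over the uninduced control. In set 1 DKO over control its ratio had an upper limit of 1.40.

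Bsg, which encodes basigin, a cell surface glycoprotein, was next, with 3 chimeras in set 1 DKO against 7 in set 1 control, and 6 in set 2 DKO and 5 in set 2 induced against 1 in the uninduced control. miR-181 made up 25.9% (17.0 to 36.5) of all Bsg chimeras and 22.0% (15.9 to 29.1) of all Lrrc32 chimeras. These were the only genes with at least 20 family chimeras. Both were picked by their family chimeras, so these percents are a description beside the family's 0.238% of all reads, which counts reads and not chimeras. Genes with fewer family chimeras had overlapping intervals, such as Gas5 at 17.4% (4.95 to 38.8) and H2-K1 at 16.2% (6.19 to 32.0).

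Of genes with at least 10 family chimeras in the compared pools, 1 could be compared in set 2 DKO, 2 in set 1 and 1 under induction. None had an interval that excluded 1, so the percent called was 0 in each direction. Scd2, a stearoyl-CoA desaturase gene, had 7 chimeras in set 2 DKO against 3 in the uninduced control, a ratio of 1.31 (0.299 to 7.84). In set 1 DKO, Bsg had a ratio of 1.34 (0.224 to 5.88). No difference was thus seen on the genes compared, whose intervals were wide at this depth. Genes below the minimum of 10 chimeras were not compared.

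The other leading genes by mean share included some that rest on 1 pool. Gsk3b, a kinase of the Wnt pathway, had 6 chimeras in set 1 DKO against 1 in set 1 control, and 2 in set 2 DKO and 1 in set 2 induced against 1 in the uninduced control. Zbtb33, a zinc finger repressor that binds methylated DNA, had 6 in set 1 DKO and 0 elsewhere. Tnpo1, a nuclear import receptor, had 5 in set 1 DKO against 2 in set 1 control, and 0 in the pools of set 2. Neat1, the scaffold RNA of paraspeckles, had 8 in set 2 DKO and 8 in set 2 induced against 1 in the uninduced control, of 12215 chimeras of all miRNAs. Thus some genes high in the mean share drew it from 1 shallow pool, where each chimera weighs most.

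Further genes among the 20 leading were Slc19a2, a thiamine transporter, with 18 chimeras over all pools, and Igf1r, the receptor of insulin-like growth factor, with 17. Gigyf1, of translational repression complexes, had 15, Kmt2a, a histone methyltransferase, had 12, and Tgfbr3, the betaglycan coreceptor, had 11. Ahnak also had 11, Plxnb2, a semaphorin receptor, 10, Lin7c 9, Foxp1 8, and Prkca and Otud4 6 each. Of the 6 Prkca chimeras, 4 lay at a single site in set 1 DKO, from 4 reads with 1 barcode. Krt5, a keratin of basal keratinocytes, had 5 and Stam2 4, with 3 of the 4 in set 1 DKO. None of these reached 20 family chimeras.

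Overlapping target parts on 1 strand over the 5 pools were joined into 1912 sites, of which 285 had at least 2 chimeras and 35 at least 5. The 35 held 13.3% of family chimeras, 3 of them were the family's own hairpins, and 3 lay in mitochondrial RNA. Among the 35, 8 had chimeras in all 5 pools and 1 in a single pool. Outside the own hairpins, at 11 the family gave more than 50% of all miRNA chimeras, and at 5 it gave all of them, those in Heca, Plxnb2, Car12, Ywhag and a site in no annotated gene.

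The largest site lay in Lrrc32 at mm10 chr7:98501748-98501828, with 35 family chimeras of 99 from all miRNAs. It had 8 from miR-181a, 3 from miR-181b, 17 from miR-181c and 7 from miR-181d, and miR-16-5p had 20. The site ends at 98501828, beside the end of the Lrrc32 span at 98501831. In Bsg, the site at chr10:79711495-79711556 had 22 family chimeras of 27, with 8 from miR-181a, 0 from miR-181b, 10 from miR-181c and 4 from miR-181d. Other miRNAs gave the remaining 5, with 2 from miR-669o-3p.

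Igf1r had a site at chr7:68043109-68043163 with 17 chimeras, all from miR-181d, of 18 from all miRNAs. It lay 190532 bases before the gene's 3′ end, and its reads carried 43 barcodes, so it rested on many molecules. Slc19a2 had a site at chr1:164263715-164263802, 1627 bases before the gene's 3′ end, with 17 chimeras, 12 of them from miR-181d and 4 from miR-181b. Tgfbr3 had one at chr5:107107965-107108025 with 11, of which 8 were miR-181b and 3 miR-181d. The Igf1r site thus belonged to miR-181d alone, and those in Slc19a2 and Tgfbr3 to miR-181b and miR-181d. miR-181a and miR-181c gave little or nothing to them.

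At 14 of the 35 sites there was also at least 1 chimera of the miR-200 family. That family made up 0.160% of set 1 DKO reads and up to 9.04%, in set 2 induced. The same count was not taken for sites of other miRNAs, so nothing is read from it. Some of the 14 had few, such as 4 of 99 chimeras in Lrrc32 and 3 of 35 in Slc19a2. A crowded mitochondrial site had 551 of 9652. In Scd2, at chr19:44303271-44303360, 16 chimeras of miR-181 lay with 153 of the miR-200 family among 262 in all. The miR-200 chimeras there numbered 0 in set 1 DKO against 12 in set 1 control, and 7 in set 2 DKO and 95 in set 2 induced against 39 in the uninduced control. The miR-181 chimeras numbered 0 in set 1 DKO against 7, and 6 in set 2 DKO and 0 in set 2 induced against 3. The induced pool, with the most miR-200 chimeras, was thus without a miR-181 chimera at that site, but with counts this low no order can be drawn.

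In Gigyf1, at chr5:137527066-137527123, 10 miR-181 chimeras lay with 12 of miR-200, of 28 from all miRNAs. Lin7c had 9 miR-181 chimeras at chr2:109897443-109897496 and Kmt2a 8 at chr9:44803461-44803511, neither with any from miR-200. Heca had 8 at chr10:17901767-17901816, with no other miRNA, and Gm6977 had 8 at chrX:90744665-90744709, of 65. Gm6977 was thus the named site with the smallest part from miR-181 apart from Scd2.

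Few pools stood behind some of the smaller sites. The 6 Zbtb33 chimeras, all from miR-181d, came from 8 reads with 2 barcodes, all in set 1 DKO. The 7 Gsk3b chimeras, all from miR-181a, came from 7 reads with 4 barcodes, and the 6 Tnpo1 chimeras, all from miR-181b, from 8 reads with 5 barcodes. Few barcodes mean that these sites rest on few molecules, most clearly the Zbtb33 site. For Tnpo1 this was not particular to the site, as a Plxnb2 site of 6 chimeras also had 5 barcodes.

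The members divided the sites by sequence more than by cluster. Among the 32 sites of at least 5 chimeras outside the own hairpins, 25 drew at least 80% of their chimeras from 1 sequence pair, 9 from miR-181a and miR-181c and 16 from miR-181b and miR-181d. By the genomic pairs, 14 of the 32 did, 7 from miR-181a and miR-181b and 7 from miR-181c and miR-181d. Among the 28 sites with more than 1 member, the counts were 21 by sequence pair and 10 by genomic pair. Names of nearly identical members could be exchanged by the authors' assignment, which was not tested.

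Over all sites the same pairs shared the most, but miR-181a and miR-181c only slightly more than the genomic pair of miR-181c and miR-181d. miR-181b and miR-181d shared 46 sites, which is 9.27% of the sites of miR-181b and 8.55% of those of miR-181d. miR-181a and miR-181c shared 36, which is 7.13% of the sites of miR-181a and 6.90% of those of miR-181c. miR-181c and miR-181d shared 34, which is 6.51% of the sites of miR-181c and 6.32% of those of miR-181d. miR-181a and miR-181b shared 29, miR-181b and miR-181c shared 27, and miR-181a and miR-181d shared 24. The division was chosen after the site table was seen and has no test.

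**Figure D3:**
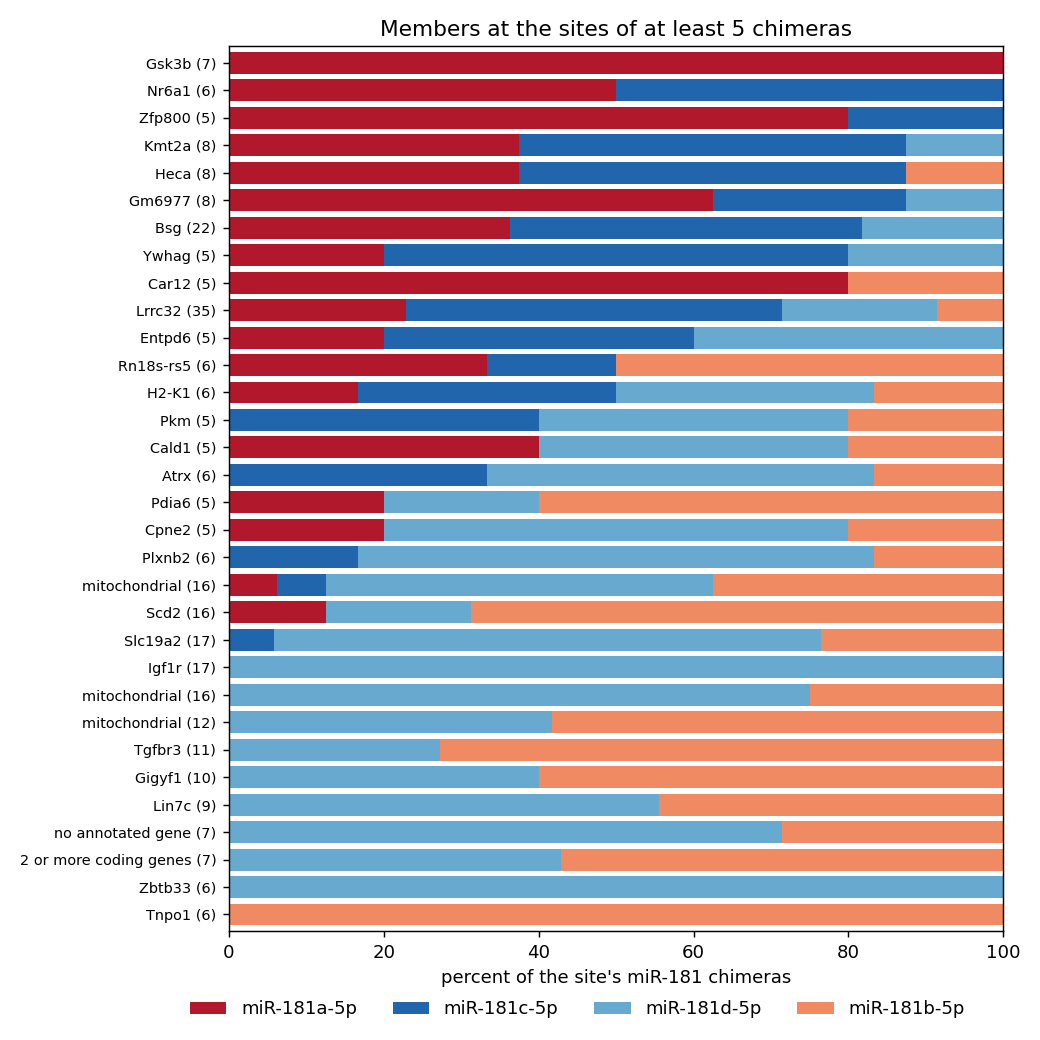
Percent of the miR-181 chimeras from each member (horizontal, stacked bars) at the 32 sites of at least 5 chimeras outside the own hairpins, with the gene and the number of chimeras on the left. Sites at the top are mostly miR-181a and miR-181c and those at the bottom are miR-181b and miR-181d, with few in between.

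The recurrent sites took an unequal part of each pool. Of chimeras outside the own hairpins, 22.6% (16.4 to 29.9) lay in sites of at least 5 in set 1 DKO and 18.9% (15.5 to 22.6) in set 1 control. The percent was 6.33% (4.78 to 8.20) in set 2 DKO and 13.1% (10.5 to 16.2) in set 2 induced, against 11.1% (8.39 to 14.3) in the uninduced control. In set 2 DKO it was 6.55% for miR-181a and miR-181b and 5.92% for miR-181c and miR-181d, so both genomic pairs were low there. The sites were defined over the same chimeras. In set 1 DKO, 36 of 159 chimeras lay in them, with 6 in Zbtb33, 6 in Gsk3b and 5 in Tnpo1. Those 3 sites had 2, 4 and 5 barcodes in that order, so the set 1 DKO percent rests in part on few molecules, most clearly at Zbtb33.

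**Figure D4:**
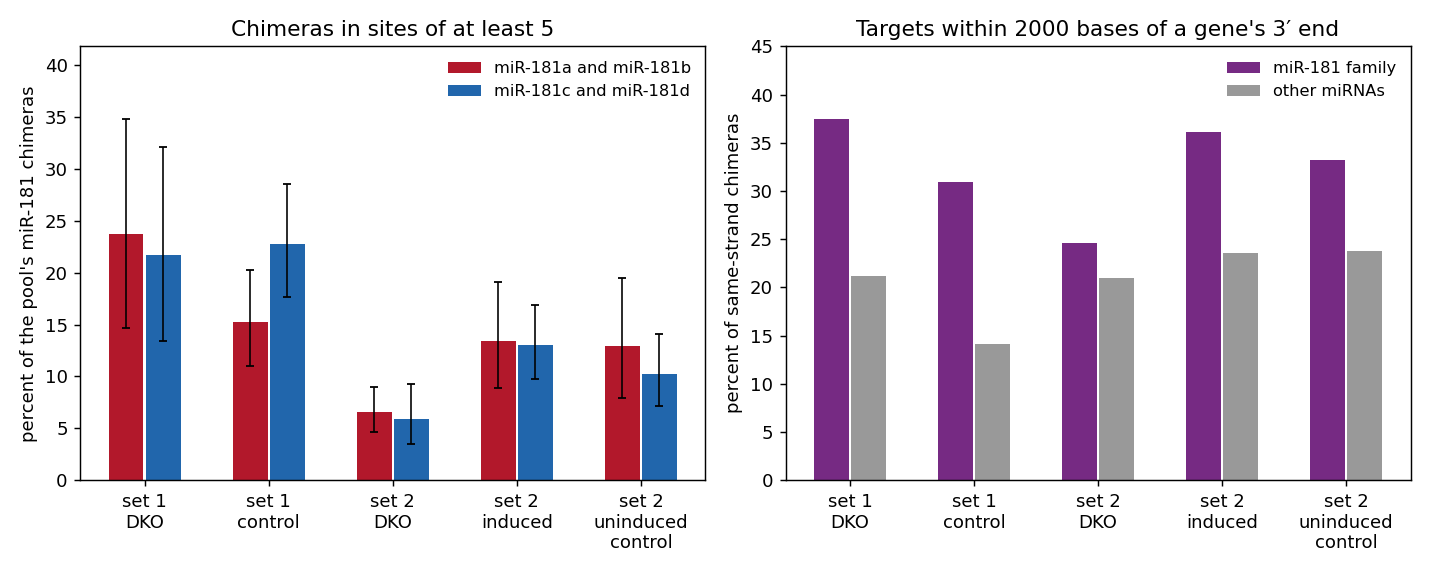
Left, percent of each pool's miR-181 chimeras outside the own hairpins that lie in sites of at least 5 chimeras, for both genomic pairs with exact 95% counting intervals. Right, percent of same-strand chimeras within 2000 bases of the gene's 3′ end for the family and for other miRNAs; set 2 DKO is lowest for the family in both panels.

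Commonly cited targets of miR-181 formed another list. Of its 39 genes, 4 had any family chimera, Il1a with 3, Nlk with 2, and Plag1 and Trp63 with 1 each. That is 0.274% (0.110 to 0.564) of family chimeras over all pools, an interval that holds the 0.422% of other miRNAs' chimeras on the same genes. Timp3, Cdx2, Prox1, S1pr1, Cd69, Tcl1 and Tnf had no chimera from any miRNA. Il1a, an alarmin cytokine, had 157 chimeras from all miRNAs. The phosphatases Dusp5, Dusp6, Ptpn11 and Ptpn22, linked to miR-181 in T cells, had 0 from the family, and 47, 29, 112 and 8 from all miRNAs in that order.

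Signalling lists lay on either side of the other miRNAs' percent. MAPK phosphatases and Sprouty genes had 2 family chimeras over 18 genes, 0.0783% against 0.288% for other miRNAs, and apoptosis genes had 2 over 19, 0.0783% against 0.209%. Genes of NF-kappaB signalling had 5, 0.196% against 0.157%, led by Tab2 with 2. TGF-beta and BMP genes had 22, 0.861% (0.541 to 1.30) against 0.523%, on 11 of 26 genes, and 11 of the 22 were on Tgfbr3. Tgfbr3 thus carried that list.

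Genes of C2H2 zinc finger proteins, named Zfp, Zkscan, Zscan or Zbtb, took 60 family chimeras on 39 of 462 genes, 2.35% (1.80 to 3.01) against 1.53% for other miRNAs. Zfp800 and Zbtb33 led with 6 each, followed by Zbtb7a with 3. Small RNA machinery genes had 20, 0.783% (0.479 to 1.21) against 0.439%. Of the 20, 11 were in set 2 DKO, at 1.30% where other miRNAs had 0.413%. Set 1 DKO had 1, at 0.625% (0.0158 to 3.43) against 0.398%, and set 1 control had 4, at 0.798% (0.218 to 2.03) against 0.389%. The induced pool had 2, at 0.352% (0.0427 to 1.27) against 0.470%. The uninduced control also had 2, at 0.420% (0.0509 to 1.51) against 0.444%. Each interval of these other pools held the other miRNAs' percent, so no direction is read from them. Within that list Ago2, the precipitated protein's own gene, had 6, all in set 2 DKO, where all miRNAs together had 87 Ago2 chimeras, against 102 in the uninduced control. Tnrc6a, a partner of Argonaute in silencing, had 5, and Dicer1, which cuts pre-miRNAs, had 4.

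Keratinocyte and adhesion genes had 25 chimeras, 0.979% against 1.15%, on 15 of 30 genes, with Krt5 at 5 and the junction genes Ctnna1 and Dsg3 at 3 each. EMT and mesenchymal genes had 6, 0.235% against 0.194%, with Snai2, a zinc finger repressor of E-cadherin, at 2. The lists were chosen with earlier results of these data known, and their percents are descriptions over pooled libraries.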

How the data were processed

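The unit of the deposited files is neither counts nor signal but, in a class of its own (other), genome positions. Per the file headers, a line gives the mm10 start, end and strand where the target part of 1 chimeric read maps, its barcode of 4 bases and the miRNA name. The submitters' processing notes name Novoalign, cutadapt and bedtools with mm10; versions and settings are not given in the sources used here. Shares have exact Clopper-Pearson 95% intervals and ratios of shares conditional exact intervals (scipy 1.17.1, pandas 2.3.3, Python 3.11.15). The intervals of ratios were tested on simulated data. Genes were assigned by the midpoint of the target part in RefSeq spans. Mitochondrial RNA came first, then structured RNA, miRNA genes, coding genes and other classes; targets within several genes of the leading class, and 18S, were not named. A floor of 3 reads is 0.00616% of set 1 DKO, 0.00186% of set 1 control, 0.00143% of set 2 DKO, 0.000716% of set 2 induced and 0.000955% of the uninduced control. Between 2.73% and 11.9% of a pool's family reads recurred, barcode included, in another pool of their set, and they were kept.

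Named were the 4 members, the 3p arms, miR-138-5p and miR-130b-3p, the 5 most alike miRNAs, the 20 leading target genes, up to 3 leading genes per list, the 10 largest sites outside structured RNA, and genes by percent miR-181 with at least 20 chimeras; further genes were named after their values were seen. The members and lists were chosen with earlier results of these data known. Alternatives counted each position once, left out recurring reads, marked names, abundant miRNAs, structured RNA or own hairpins, or changed the count minimums and overlaps. No genome was used, so seed matches in targets were not analysed here.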

Additional observations from a re-analysis of the deposited data

How the results depend on the processing

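No paired analysis was possible because the libraries of a group are pooled without replicate numbers, and leaving out a library was not possible either. The seed match of the targets and its alternatives were not run, since no genome was used. The family ratio ranged from 2.52 to 2.76 for set 2 DKO, from 0.991 to 1.13 for set 1 DKO and from 0.880 to 0.914 for the induced pool over the alternatives run. Some of these left out own-hairpin reads or 7 miRNAs overrepresented in set 1 and were chosen after seeing the data. In set 2 DKO, miR-181a ranged from 6.57 to 7.67, miR-181b from 3.97 to 4.46, miR-181c from 1.21 to 1.33 and miR-181d from 1.30 to 1.40. Without shared reads the interval of miR-181d in set 1 DKO and those of miR-181c and the family in the induced pool no longer included 1, and other totals brought 1 into that of miR-181c in set 2 DKO. Counts moved with their minimums by construction. Genes with at least 5 chimeras numbered 3 in set 1 DKO, 7 in set 1 control, 6 in set 2 DKO, 4 in set 2 induced and 2 in the uninduced control. At 1.5-fold, 56 miRNAs were higher and 55 lower in set 2 DKO, 45 and 82 in set 1 DKO, and 12 and 9 in the induced pool. At a minimum of 20 reads, 44 were higher and 44 lower of 371 in set 2 DKO, 39 and 172 of 562 in set 1 DKO, and 16 and 9 of 421 in the induced pool. Depth limits most the set 1 DKO pool, with 176 family reads, and every single target gene.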
